A study of Mus musculus with 2 samples.

Results

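Aminoacyl-tRNA synthetases join each amino acid to its tRNA, the step that gives the ribosome its charged substrates. The set described here consists of 10 genes for the cytosolic enzymes, taken by symbol from the 32285 genes listed in the deposited tables. They are Vars (valine), Aars (alanine), Gars (glycine), Iars (isoleucine), Lars (leucine), Qars (glutamine), Nars (asparagine), Rars (arginine), Sars (serine) and Tars (threonine). They were selected on symbols with their ratios between these libraries known from earlier results, in which Vars stood low in sonKD. Those ratios are therefore a description and carry no test. Levels are given as UMIs (unique molecular identifiers, each counting 1 captured RNA molecule) per 1000000 UMIs of the cells, or CPM. All 10 had a mean CPM over both libraries of at least 10, the minimum used for ratios, which 8063 genes passed.

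The libraries come from E14 mouse embryonic stem cells of 129/Ola background, kept in medium with serum and leukaemia inhibitory factor. The control library was made from cells given a control siRNA and the sonKD library from cells given siRNA against Son, both transfected with Lipofectamine 24 hours after seeding and harvested 24 hours later. Both suspensions were frozen, thawed and sorted for viable cells before droplet barcoding on the 10x Chromium system, which counts the 3' ends of polyadenylated RNA. Each group held 1 library, so what belongs to the library and what to the siRNA cannot be told apart. No difference below has a replicate check.

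Class I and class II synthetases differ in the fold of their catalytic domain. Vars, Iars, Lars, Qars and Rars encode class I enzymes, and Aars, Gars, Nars, Sars and Tars encode class II enzymes. The Iars, Lars, Qars and Rars enzymes sit in the multisynthetase complex, held together by the scaffold proteins AIMP1, AIMP2 and EEF1E1. The valine enzyme is not part of that complex and associates with elongation factor 1, which carries charged tRNA to the ribosome. Many cytosolic synthetase genes are known targets of ATF4, the transcription factor of the amino acid and stress response. SON is an RNA-binding protein of nuclear speckles with a role in splicing.

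Cells were barcodes with a minimum of 2500 UMIs and 1000 genes and with no more than 10% of UMIs from mitochondrial genes. These were 4978 control cells with 40902904 UMIs and 2731 sonKD cells with 32032551 UMIs, at median depths of 7737.5 and 11612 UMIs. Only 2 cell barcodes occurred in both libraries. Barcodes past both minima but with more mitochondrial UMIs, which were left out, made up 11.2% in control and 27.9% in sonKD. Son itself was at 169 CPM in control and 106 in sonKD, or 62.7% of control. The stem cell marker list was well detected, with 10 of 10 markers above 10 CPM. Pou5f1 (octamer factor of pluripotency), Sox2 and Nanog were among them. Of 10 primitive endoderm markers 3 reached that level, of 8 trophectoderm markers 2, of 7 mesoderm markers 0, of 7 neuroectoderm markers 2 and of 8 fibroblast markers 1, and no list of another cell type summed to more than 225 CPM in either library, against 8697 and 9439 CPM for the stem cell list. The trophectoderm list summed to 61.5 CPM in control and 81.8 in sonKD, with its marker Elf5 at 0 in both. Its part in the results was not tested.

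In the cells, Vars was the synthetase with the largest gap between the libraries. It had 5376 UMIs in control, or 131 CPM (95% counting interval 128 to 135), and 2179 UMIs in sonKD, or 68.0 CPM (65.2 to 70.9). The intervals lie far apart, and sonKD held 51.8% of the control level (49.2 to 54.4). The log2 ratio of sonKD over control was -0.95 (-1.02 to -0.88), and 8 of the 8063 genes had a lower one. Over 7 alternatives in scaling and cell choice the value lay between -0.98 and -0.86. All intervals given here cover counting error only.

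The 4 members whose enzymes sit in the multisynthetase complex did not share 1 pattern. Qars, which charges tRNA with glutamine, was at 79.0 CPM in control (76.3 to 81.8) and 54.6 in sonKD (52.1 to 57.3), a log2 ratio of -0.53 (-0.62 to -0.45). That is the second lowest ratio of the 10 and a level of 69.1% of control. Iars was at 124 CPM and 104 CPM, a log2 ratio of -0.25 (-0.32 to -0.19). Rars was at 190 CPM and 167 CPM, a log2 ratio of -0.19 (-0.24 to -0.14). Lars stood on the other side of 0, at 346 CPM in control (341 to 352) and 369 in sonKD (363 to 376), a log2 ratio of 0.09 (0.06 to 0.13). It was also the member with the most UMIs in both libraries.

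The median log2 ratio of all genes was -0.12, with a 5th percentile of -0.40 and a 95th of 0.25. The 5 class II members lay inside that range, as did Iars, Lars and Rars of class I. Aars was at 155 CPM in control and 131 in sonKD, a log2 ratio of -0.24 (-0.30 to -0.19). Its annotated gene overlaps Exosc6 on the same strand and the 3' end of its longest transcript is shared with that gene, so its count is uncertain. Tars was at 163 CPM and 150 CPM, a log2 ratio of -0.12 (-0.17 to -0.06). Sars was at 156 CPM and 152 CPM, and Gars at 200 CPM and 197 CPM, so that for both the counting intervals of the libraries overlapped. Their log2 ratios of -0.04 and -0.02 turned positive, to 0.05 and 0.07, when the libraries were scaled with TMM factors (a trimmed mean over genes in place of the library total), which raised every log2 ratio by 0.09. Nars, which charges tRNA with asparagine, had the highest ratio of the 10, at 217 CPM in control (213 to 222) and 250 in sonKD (245 to 256), a log2 ratio of 0.20 (0.16 to 0.25).

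**Figure D1:**
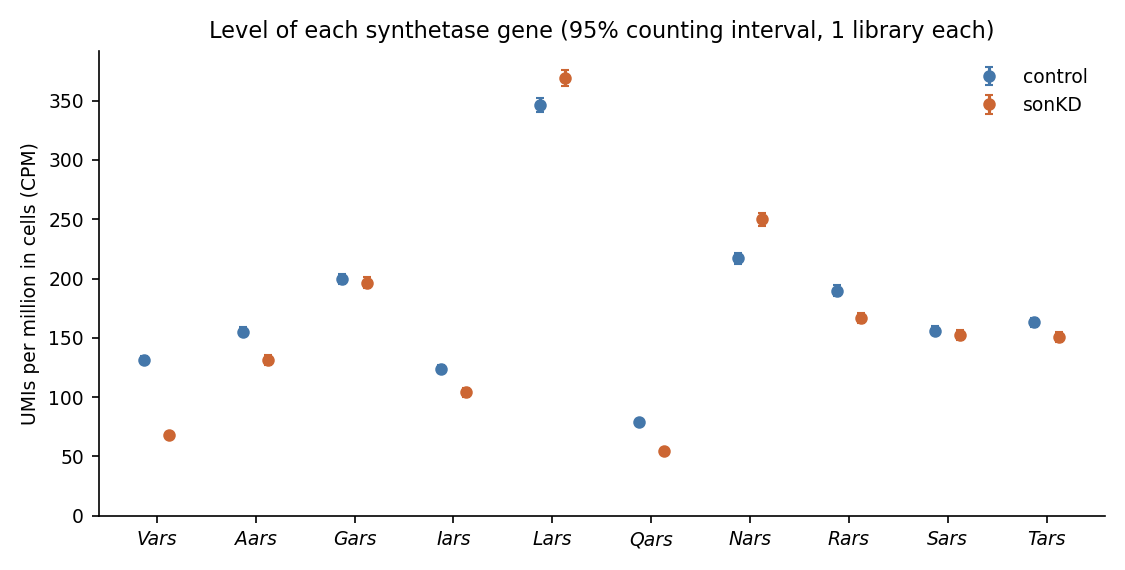
Level of each of the 10 synthetase genes in CPM, with points for the summed control cells (blue) and sonKD cells (orange) and bars for the 95% counting interval. Vars drops from 131 to 68.0 CPM and Qars from 79.0 to 54.6 CPM, while Lars and Nars are higher in sonKD.

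A level at least 20% lower in sonKD, a log2 distance of 0.32, was found for 2 of the 10 members, Vars and Qars, and the same distance upward, 25% higher, for 0. Of all 8063 genes, 10.2% lay past the lower limit and 3.5% past the upper, and with TMM factors 4.59% and 5.57%. These shares of the background are given beside the count because the members were chosen with this comparison in view, and nothing is read from the count. The member nearest the limit from outside was Iars at -0.25. At 1.5-fold lower, where 1.23% of all genes lay, Vars was the only member, and 0.992% of genes lay 1.5-fold higher with 0 members among them. The median log2 ratio was -0.12 over the other 9 members, the same as over all genes to 2 decimals, and 4 of the 9 lay above the median of all genes.

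The gap of Vars was also measured within each library, where the library total does not enter. For every 100 UMIs of the other 9 members together there were 8.06 Vars UMIs in control (7.84 to 8.29) and 4.32 in sonKD (4.14 to 4.51). The log2 ratio of these shares was -0.90. The same measure gave -0.45 for Qars, from 4.70 to 3.44 UMIs per 100 of the other 9, and 0.35 for Nars, from 14.1 to 18.0. The 9 members other than Vars summed to 1630 CPM in control and 1575 in sonKD. The sum of all 10 was 1762 CPM (1749 to 1775) and 1643 (1629 to 1657).

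**Figure D2:**
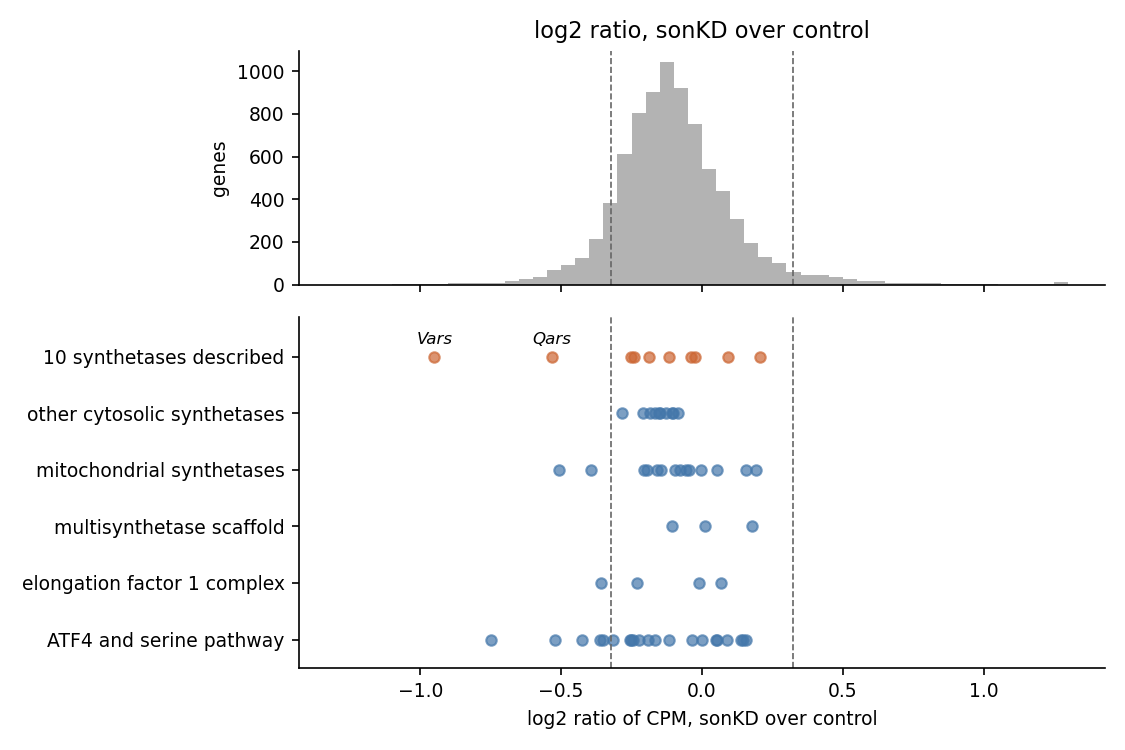
Top, the number of genes by log2 ratio of CPM (sonKD over control) for the 8063 genes that reached a mean of 10 CPM, with ratios beyond 1.3 drawn at the edge. Bottom, 1 point per gene for the 10 synthetases and 5 related gene lists, with dashed lines at 20% lower and 25% higher. Vars and Qars lie to the left of the lower line, and none of the other cytosolic synthetases passes either line.

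None of the remaining cytosolic synthetases compared had a ratio as low as Vars or Qars. Of 11 listed genes, 10 had a mean of at least 10 CPM, and 0 of these 10 lay past the limit of 20% lower or 25% higher. All 10 log2 ratios were below 0, from -0.29 for Dars (aspartate) to -0.09 for Farsa, with a median of -0.15 that TMM factors moved to -0.06, Farsa then being above 0. Eprs, the joint glutamate and proline enzyme, had the most UMIs of the list at 967 CPM in control and 884 in sonKD, a log2 ratio of -0.13. The others were Farsb at -0.19, Yars at -0.21, Mars at -0.17, Cars and Wars at -0.15, Kars at -0.11 and Hars at -0.10. Among the scaffold genes, Aimp1 had a log2 ratio of 0.18, Eef1e1 of 0.01 and Aimp2 of -0.11.

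Mitochondrial synthetases, which charge tRNA inside the organelle, were expressed at lower levels. Of 17 genes 14 had a mean of at least 10 CPM, with 2 at least 20% lower and 0 at least 25% higher, beside 10.2% and 3.5% of all genes. Their median log2 ratio of -0.09 changed sign to 0.003 with TMM factors. The lowest were Aars2 at -0.51, Ears2 at -0.39 and Fars2 at -0.21, and the highest Hars2 at 0.19, Iars2 at 0.16 and Cars2 at 0.05. The mitochondrial valine gene Vars2 was too low for the comparison, at 7.02 CPM in control and 5.12 in sonKD.

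Genes of elongation factor 1, the partner of the valine enzyme, are among the most abundant of the cell. Eef1d, a guanine nucleotide exchange subunit, was at 761 CPM in control and 594 in sonKD, a log2 ratio of -0.36 (-0.38 to -0.33). It was the 1 gene of 4 at least 20% lower, beside 10.2% of all genes, and the TMM shift of 0.09 would bring it back inside that limit. Eef1g was at -0.23, Eef1b2 at -0.01 and Eef1a1, which binds charged tRNA, at 0.07.

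In the list of 25 ATF4 and serine pathway genes, 21 reached 10 CPM. Of these, 5 were at least 20% lower and 0 past the upper limit, beside 10.2% and 3.5% of all genes. Both the count and the shares are by library totals. The TMM shift of 0.09 would take those of the 5 nearest the lower limit back inside it. The median log2 ratio was -0.19, or -0.10 with TMM factors. Pycr1 (proline synthesis) was lowest at -0.75, followed by Shmt2 (serine to glycine in mitochondria) at -0.52 and Chac1 (glutathione breakdown) at -0.43. The highest were Nupr1 at 0.16, Ddit4 at 0.15 and Ddit3 at 0.14. Atf4 itself was at 127 CPM in control and 117 in sonKD.

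The detection of Vars per cell was compared after 4000 UMIs were drawn at random from each cell (thinning), since sonKD cells were deeper. This left out 268 control cells and 109 sonKD cells as too shallow. A Vars UMI was found in 39.3% of 4710 control cells and in 20.9% of 2622 sonKD cells (19.3 to 22.5). Without thinning the shares were 60.5% and 45.0%. The thinned share for Qars was 26.3% and 18.9%, and for Lars 72.3% and 73.1%. Droplets with 100 to 500 UMIs, taken as a measure of free RNA, also held these transcripts, with Vars at 46.0 CPM in control and 15.3 in sonKD, below the level in cells of either library. The log2 ratio in these droplets was -1.59 for Vars and -0.65 for Qars, while the other 8 members lay between -0.48 for Iars and 0.18 for Nars. No cell type that lacks these genes was at hand as a background. In the barcodes left out for their mitochondrial share, Vars was at 63.8 CPM in control and 43.6 in sonKD. Its log2 ratio there was -0.55 (-0.89 to -0.20). Qars had the lowest ratio in those barcodes, at -0.58 (-0.94 to -0.22), and the intervals of Vars and Qars overlapped. The other 8 members lay between -0.29 for Aars and 0.39 for Nars.

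Synthetase transcripts were spread thinly over most cells. In cells of 4000 UMIs the 10 genes together gave a median of 7 UMIs in control and 6 in sonKD, and 0.573% and 1.03% of cells had none. A median of 5 of the 10 genes was detected per control cell and 4 per sonKD cell. The Fano factor, the variance over the mean, which is 1 for pure counting, was 1.54 in control and 1.69 in sonKD for the sum. For Vars alone it was 1.03 and 1.12.

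Vars was at a lower level in sonKD in each of 4 depth classes of the cells, by amounts that differed. Between 5000 and 10000 UMIs it was at 129 CPM in 3475 control cells (125 to 134) and 50.8 CPM in 675 sonKD cells (45.0 to 57.1). Between 10000 and 20000 UMIs it was at 149 CPM and 70.3 CPM. In the shallowest class, 2500 to 5000 UMIs, it was at 63.1 CPM (52.6 to 75.1) and 38.2 (24.5 to 56.8), where the intervals overlapped. Above 20000 UMIs, in 49 control cells and 114 sonKD cells, it was at 125 CPM (106 to 147) and 90.3 CPM (79.3 to 102). Per 100 UMIs of the other 9 members the intervals of that class overlapped, at 6.85 (5.75 to 8.11) and 5.36 (4.69 to 6.10). The 9 other members summed to 1236 CPM in the shallowest class of control and 1583 CPM in the next, and to 1266 and 1265 CPM in sonKD. In cells with a mitochondrial share of 2.5 to 5% Vars was at 137 CPM in control and 72.3 in sonKD, and at 7.5 to 10% at 64.7 CPM and 44.8 CPM with overlapping intervals.

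Within the sonKD library Vars differed with the Son UMIs of the cell. In thinned cells it was at 56.3 CPM in 1754 cells with no Son UMI (50.9 to 62.1), at 71.7 CPM in 631 cells with 1 (61.6 to 83.0) and at 88.6 CPM in 237 cells with 2 or more (70.7 to 110). The outer classes do not overlap. In control the same classes were level, at 128 CPM (121 to 135), 126 CPM (118 to 135) and 122 (109 to 135). The log2 ratio of cells with a Son UMI over cells with none was 0.44 for Vars in sonKD (0.21 to 0.67), above 95.9% of 7941 genes, and -0.04 in control (-0.15 to 0.08), above 29.6% of 8062 genes. The ratio and its place among all genes, chosen after seeing the data, use cells of 1 library, which are not replicates, and the difference between the libraries was not tested.

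Qars was next in the sonKD library, with a log2 ratio of 0.27 (0.02 to 0.52) between cells with and without a Son UMI, above 85.6% of genes, and 0.01 in control. The other 8 members lay between -0.16 for Sars and 0.12 for Iars in sonKD. Depth and mitochondrial share were close between these classes, with medians of 11653.5 and 11977.5 UMIs and of 4.06% and 4.05% in sonKD. A cell without a Son UMI may still hold Son RNA, since 4000 UMIs sample only a part of it.

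**Figure D3:**
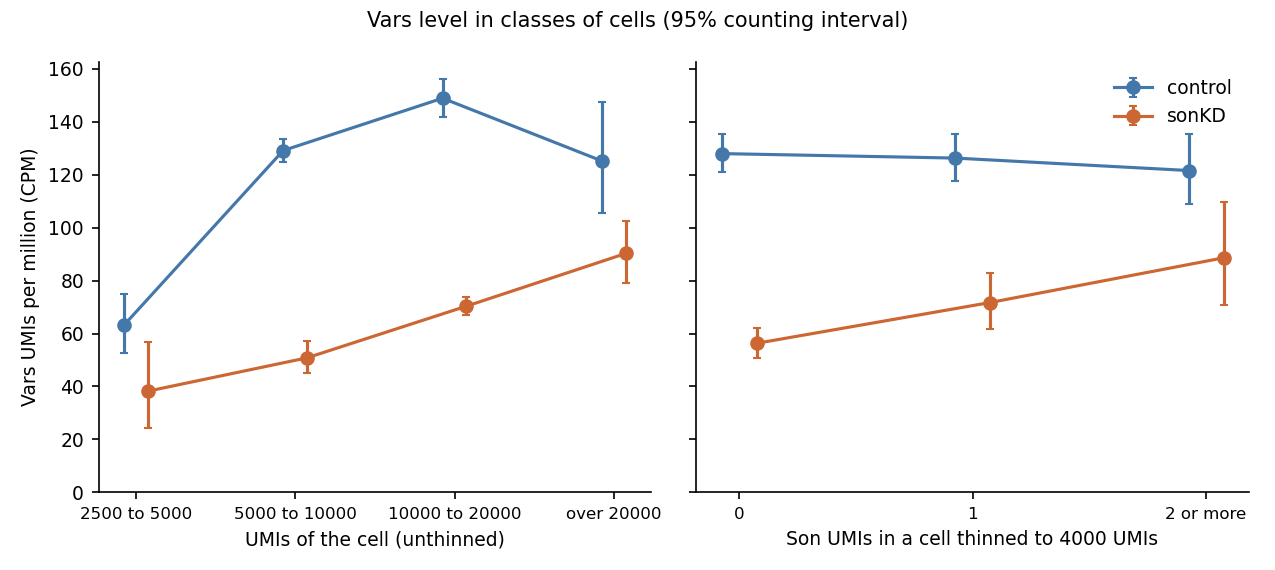
Vars in CPM in classes of cells, by the cell's depth (left) and by Son UMIs after thinning to 4000 UMIs (right), for control (blue) and sonKD (orange), with 95% counting intervals. By Son UMIs, sonKD goes from 56.3 to 88.6 CPM and control from 128 to 122 CPM.

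Whether the synthetases vary together was described over cells of 4000 UMIs within each library. Over the 45 pairs Pearson's r had a median of 0.04 in 4710 control cells, from -0.01 to 0.09, and of 0.05 in 2622 sonKD cells, from -0.02 to 0.14. Counts this sparse hold r near 0, so the single pairs are no finding, and all pairs share the library and the fixed total of the cell. Over the 9 pairs with Vars the median was 0.04 in both libraries, against 0.05 in control and 0.06 in sonKD over the other 36 pairs. At 8000 UMIs per cell the medians were 0.05 with Vars and 0.06 over the others in control. In sonKD they were 0.06 and 0.11. Whether the lower level of Vars in sonKD accounts for this was not tested.

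Each member was then set against the sum of the other 9. Vars had an r of 0.10 in control, higher than 98.7% of 2994 genes outside the set, and 0.11 in sonKD, higher than 96.9%. The 95th percentile of those genes was 0.07 for the control cells and 0.09 for the sonKD cells, below Vars both times. Those genes were set against the same sum whichever member was compared, while each member was left out of its own sum. The measures set side by side are thus not exactly alike. Lars, with 0.17 and 0.20, and Nars, with 0.16 and 0.22, were among the 3 highest in both libraries, and Gars had 0.16 and 0.17. Qars stood apart with 0.02 in control and -0.004 in sonKD, where 62.5% and 34.0% of genes lay lower. At 8000 UMIs per cell the sonKD value for Qars was 0.07. Rars was also low, with 0.04 and 0.07.

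Vars also differed between the libraries among cells of a like synthetase level. In cells with 2 to 3 UMIs of the other 9 there were 0.393 Vars UMIs per cell in control and 0.178 in sonKD. In cells with 9 or more there were 0.596 and 0.343. Vars thus increased with the other members in both libraries and was lower in sonKD in each class.

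The genes outside the set most like the sum of the 10, by the lower r of both libraries, were Ncl, which encodes nucleolin, H2afz (a histone variant), Npm1 (nucleophosmin), Mthfd2 (mitochondrial folate enzyme) and Eprs. Their r was between 0.18 and 0.22 in control and between 0.20 and 0.30 in sonKD. For Vars they were Set, H2afz, Ncl, Npm1 and Ldha (lactate dehydrogenase), with r of at most 0.10 in control and 0.11 in sonKD.

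Against the summed ATF4 and serine pathway list, the other 9 members together had an r of 0.35 in control and 0.40 in sonKD. Against the ribosome biogenesis list the values were 0.25 and 0.31. Of the 20 genes in that list, 3 were at least 20% lower in sonKD and 2 at least 25% higher, beside 10.2% and 3.5% of all genes, with a median log2 ratio of -0.08, which the TMM shift of 0.09 would bring above 0. The values of single members were lower. With the ATF4 list, Nars reached 0.21 and 0.26, Sars 0.20 and 0.21 and Gars 0.20 and 0.23. Vars had 0.09 and 0.07, and Qars 0.03 and -0.01. With the ribosome biogenesis list Vars had 0.10 in control and 0.11 in sonKD. The lists are not alike in depth, with a mean of 61.1 UMIs per control cell for ribosome biogenesis and 6.89 for ATF4, and on unthinned log values in control the r of Vars was 0.20 with either list.

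The same relation was read, in a way chosen after seeing the data, as levels in cells with few and with many UMIs of the ATF4 list. Cells with at most 4 such UMIs (1380 in control, 901 in sonKD) were set against cells with at least 9 (1440 and 675). These are ranges of a count and not cell types, and 525 control cells lay exactly at the lower limit and 347 at the upper. Sars went from 110 to 202 CPM in control and from 103 to 204 in sonKD, a log2 ratio of 0.87 and 0.99. Nars went from 161 to 284 CPM and from 176 to 340 CPM. In both libraries the ratios of Sars and Nars lay above 99.8% of the genes compared.

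Vars went from 109 to 147 CPM in control, a log2 ratio of 0.43 (0.27 to 0.58), and from 49.7 to 74.4 in sonKD, 0.58 (0.29 to 0.88). These lay above 96.8% and 98.1% of genes. Vars was therefore higher in cells rich in the ATF4 list in both libraries, by less than Sars or Nars. Qars went from 73.0 to 84.0 CPM in control and from 54.9 to 48.1 in sonKD, and its log2 ratios of 0.20 (0.01 to 0.40) and -0.19 (-0.52 to 0.14) lay above 84.7% and 28.4% of genes.

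**Figure D4:**
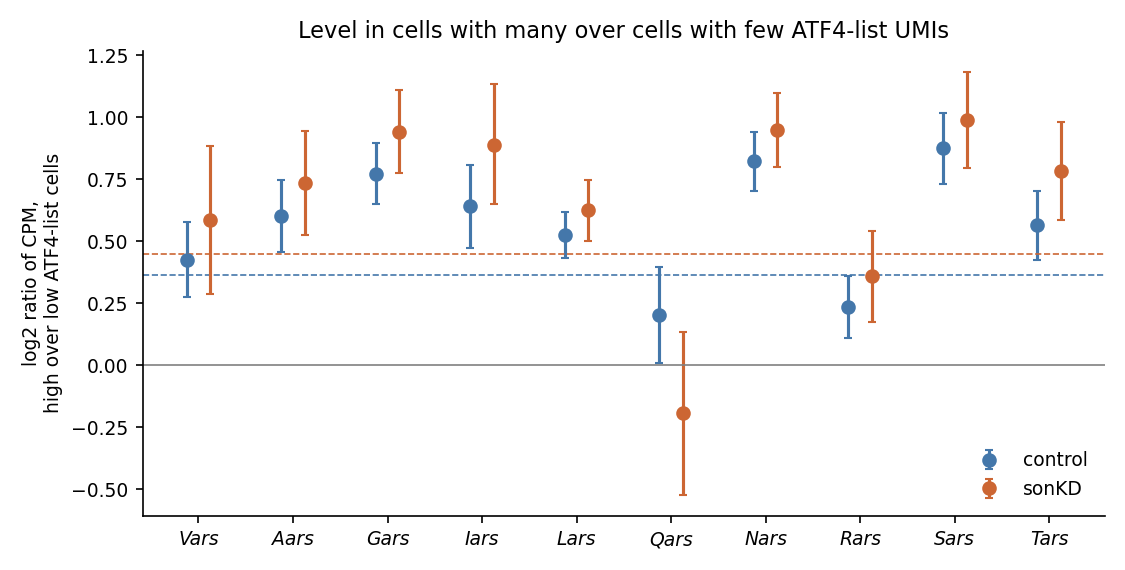
Log2 ratio of the level in cells with at least 9 over cells with at most 4 UMIs of the ATF4 list, for each member in control (blue) and sonKD (orange) with 95% counting intervals. Dashed lines mark the 95th percentile of all genes compared in each library. Only Qars and Rars lie below these lines in both libraries.

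The promoters were searched for TGATGNAA on either strand, a core of the element that ATF4 binds with C/EBP proteins. RefSeq promoters on GRCm38.p6, from 250 bases before to 50 after the start site, were matched for 6 of the 10 genes (Aars, Gars, Iars, Qars, Sars and Tars). The motif occurred in 4 of these 6, against 3.97% of 32851 promoters and 2.46% of the 6471 promoters of genes that reached 10 CPM. Among the other cytosolic synthetases it occurred in 1 of 6 promoters matched. The 4 matches shown, 1 for each gene, read TTNCATCA, the reverse complement, on the strand of the gene. The stretches of 30 bases around them are given with the match in capitals. All 4 genes were higher in cells rich in the ATF4 list, but this did not set them apart. In control every member was higher in those cells. Sars, with no match, had a larger log2 ratio than any of the 4, at 0.87 in control and 0.99 in sonKD.
Aars, chr8:111033840-111033869, plus strand, match starting at base 10 of the transcript: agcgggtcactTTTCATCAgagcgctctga
Gars, chr6:55037960-55037989, plus strand, match starting 30 bases before the start site: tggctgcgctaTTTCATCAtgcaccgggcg
Iars, chr13:49682126-49682155, plus strand, match starting at base 8 of the transcript: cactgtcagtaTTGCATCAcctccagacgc
Tars, chr15:11399655-11399684, minus strand, match starting 15 bases before the start site: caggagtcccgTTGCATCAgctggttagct

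Qars and Sars had no match in the window, which says only that these letters are not there, and Sars nonetheless had the highest ratio between ATF4-list classes in both libraries. The 250 bases before the RefSeq start site of Qars and of Gars are shown side by side. Qars varied least with the ATF4 list and Gars varied with it. The pair was picked for that contrast and carries no test. Qars lies at chr9:108507755-108508004 and Gars at chr6:55037751-55038000, both on the plus strand, with the Gars match in capitals. GENCODE starts the Qars gene at 108507706, so the stretch shown lies inside that gene, and the bases before it were not searched. Likewise GENCODE starts Aars at 111033144, ahead of the window searched, which began at 111033592.
Qars: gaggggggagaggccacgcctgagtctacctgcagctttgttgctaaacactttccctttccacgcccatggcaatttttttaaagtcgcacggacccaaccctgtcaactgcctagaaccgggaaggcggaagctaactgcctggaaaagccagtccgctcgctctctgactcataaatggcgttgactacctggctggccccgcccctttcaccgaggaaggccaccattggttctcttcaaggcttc
Gars: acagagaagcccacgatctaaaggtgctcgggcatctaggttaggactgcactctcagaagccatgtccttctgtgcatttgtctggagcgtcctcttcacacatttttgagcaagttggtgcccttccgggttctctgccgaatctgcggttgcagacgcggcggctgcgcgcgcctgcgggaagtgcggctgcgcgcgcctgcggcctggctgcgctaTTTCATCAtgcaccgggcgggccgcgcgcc

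Vars and Qars shared a gene structure, which was looked at with their low ratios known. Vars (ENSMUSG00000007029) lies on chromosome 17 from 35000987 to 35016322 on the plus strand of GRCm38. Its longest transcript has 30 exons, and the median of its introns is 129 bases, shorter than in all but about 2.44% of the genes compared. Qars (ENSMUSG00000032604) lies on chromosome 9 from 108507706 to 108515941 and has 24 exons with a median intron of 120 bases, at the 2.05th percentile. The other 8 members had median introns from 503 bases for Tars to 1994.5 bases for Gars. Vars was also the member with the highest GC content, 60.9%, at the 97.8th percentile, against 52.4% for Qars.

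Across all genes the share at least 20% lower was 29.2% in the 10% of genes with the shortest median introns, against 5.43% in the 10% with the longest. By GC content it was 21.8% in the highest 10% and 8.05% in the lowest. The lowest share by GC content, 4.71%, lay between these ends. Spearman's rank correlation with the log2 ratio was 0.09 for median intron length and -0.03 for GC content. It was -0.29 for exon number and -0.28 for transcript length. Of 1320 genes with at least 20 exons, 14.5% were at least 20% lower. Among the 126 of these whose median intron was among the shortest 10%, at most 286.75 bases, 53 or 42.1% were at least 20% lower, with a median log2 ratio of -0.27. Among the 1194 with longer introns 11.6% were, with a median of -0.18. Vars and Qars belong to the set of 126 and are counted among its 53. With TMM factors the share in that set was 24.6%, beside 4.59% of all genes. Genes are not independent replicates. The set, with its limits of 20 exons and the shortest 10% of introns, was chosen after the structure of the members was known. Its share is therefore a description and carries no test.

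**Figure D5:**
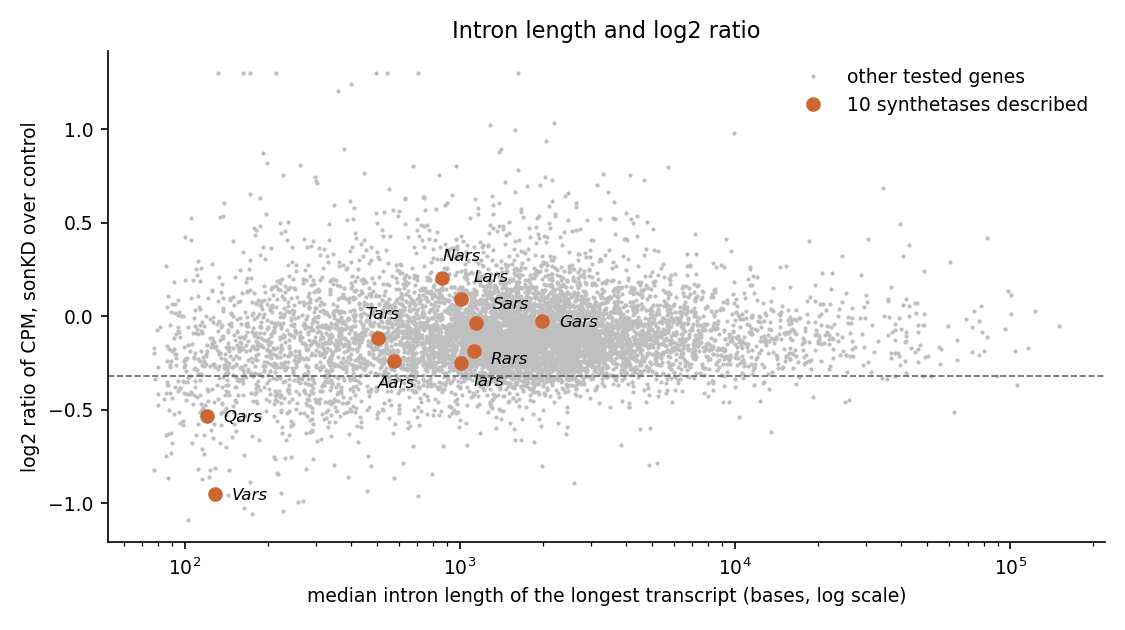
Log2 ratio of CPM (sonKD over control) against the median intron length of the longest annotated transcript on a log scale, 1 point per gene, with ratios beyond 1.3 drawn at the edge and a dashed line at at least 20% lower. Vars and Qars, with median introns of 129 and 120 bases, lie at the lower left, and the other 8 synthetases have longer introns and lie above the line.

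Some neighbours of Vars were also low in sonKD. Vars lies in the gene-dense class III region of the major histocompatibility complex, and 17 protein-coding genes that reached the minimum of 10 CPM lay within 250 kb. Their median log2 ratio was -0.27, and 5 of the 17 were at least 20% lower and 0 past the upper limit, beside 10.2% and 3.5% of all genes. Prrc2a was lowest at -1.06, from 31.3 CPM in control to 15.0 in sonKD, followed by Ehmt2, a histone H3 lysine methyltransferase, at -0.87, from 51.4 to 28.1 CPM. Dxo, which removes incomplete RNA caps, was at -0.71, Skiv2l, an RNA exosome helicase, at -0.58 and Neu1, a lysosomal sialidase, at -0.41. The TMM shift of 0.09 would bring Neu1 back just inside the limit.

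Other genes of the same stretch stood near or above the median of all genes. Clic1 had a log2 ratio of 0.07, H2-D1 of 0.13, Stk19 of -0.01, Nelfe of -0.06 and Gpank1 of -0.10. Lsm2, the nearest of the 17 at a distance of 15.1 kb, was at 253 CPM and 205 CPM, a log2 ratio of -0.30. The others lay between -0.31 for Ddx39b and -0.21 for Bag6, with Zbtb12, Nfkbil1, Ddah2 and Csnk2b between them. Median introns were 176 bases in Prrc2a, 115.5 in Ehmt2 and Dxo, 135 in Skiv2l and 368 in Neu1. Genes of the stretch above the lower limit also had short introns, with 153 bases in Ddah2, 176.5 in Nelfe, 178 in H2-D1, 180.5 in Lsm2, 215 in Bag6 and 251.5 in Stk19. H2-D1 belongs to a family of near-identical genes, so its count is uncertain.

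Around Qars, 2 of 15 such neighbours were at least 20% lower, beside 10.2% of all genes. Their median log2 ratio was -0.12, the same as over all genes to 2 decimals. The other 8 members had at most 9 neighbours each in the comparison, and 1 of the 3 genes near Rars was at least 20% lower.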

How the data were processed

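The deposited values are raw counts of UMIs for every barcode, with no selection of cells. Per the file headers the authors made them with Cell Ranger 7.1.0, and per the submitters' processing notes the build was mm10. Which annotation was used and whether intronic reads were counted are not given in the sources used here. The members, gene lists and cell limits were chosen with earlier results of these data known.

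Counts were summed over the cells of each library (scipy 1.17.1, numpy 2.4.6) and scaled to CPM by the library sum. No pseudocount was added to log2 ratios of sonKD over control, and counts below 3 were raised to 3. Intervals are at 95%, exact Poisson for levels, exact conditional binomial for ratios and Clopper-Pearson for shares of cells. PCR copies are collapsed by UMI, and intervals cover counting error only. With 1 library per group no test was made. Ratios and co-variation were tested on simulated data. Scrublet (scanpy 1.11.5) called 0.0603% of control and 0.0366% of sonKD barcodes as doublets, under the 0.5% of a working call, so doublets were kept, and an alternative removed the 198 and 60 highest scores. Gene structures come from GENCODE on GRCm38 (the build of mm10) and promoters from RefSeq on GRCm38.p6. Alternatives were TMM factors (edgeR 4.0.16), median-of-ratios factors, other gene and cell filters, other thinning depths and unthinned log values.

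Named genes were Son, the members, the other cytosolic synthetases, scaffold and elongation factor 1 genes past 10 CPM, the 3 lowest and 3 highest of the mitochondrial and ATF4 lists, the genes near Vars, and the 5 most like the members and Vars over cells with at least 0.2 UMI per cell. Atf4, Vars2 and single markers were named after their values were seen. A further promoter stretch is not reported here.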

Additional observations from a re-analysis of the deposited data

Results flagged for a closer look

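Nars was higher in sonKD also in data outside the cells. Among barcodes with at least 2500 UMIs but over 10% mitochondrial UMIs it was at 288 CPM in sonKD (271 to 306) and 221 CPM in control (201 to 242), and in droplets with 100 to 500 UMIs at 168 CPM (162 to 174) and 148 CPM (142 to 154). Attention was drawn to these because the data are outside the main measurement and the interval lay above that of the control library. No other member did so in either kind of barcode.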

How the results depend on the processing

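No paired analysis was possible because each group held 1 library, both numbered 1. The ratio between Son classes with its alternatives, the set of genes with short introns, the ATF4-list ranges and the barcodes outside the cells were chosen after seeing the data. Of 146 values under alternatives, 95 stayed inside the counting interval, within 0.05 for an r or a list median, or within 1.5 times for a count or share. A wider limit was used for the median log2 ratio of all genes, so its shifts under other scaling, 0.09 with TMM factors, are among the 95. In each of 7 alternatives 2 members were at least 20% lower and 0 at least 25% higher.

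With TMM factors all ratios were higher by 0.09. This gave Vars -0.86, Qars -0.44, Gars 0.067 and Sars 0.053, medians of -0.060 for the other cytosolic, 0.0030 for the mitochondrial, -0.10 for the ATF4 and -0.031 for the elongation factor 1 list, and 4.59% of genes at least 20% lower and 5.57% at least 25% higher. Median-of-ratios size factors gave Vars -0.87, Qars -0.45, Gars 0.061 and Sars 0.048, and 4.76% and 5.43% of genes. Leaving mitochondrial and ribosomal protein genes out of the totals gave Vars -0.88, Gars 0.050 and Sars 0.036, and 5.49% and 5.29%. With no filter on level the shares were 17.0% and 22.1%, and at 50 CPM 7.05% were lower and 5.27% higher.

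A Vars UMI was found in 26.4% of control and 14.3% of sonKD cells thinned to 2500 UMIs, and in 66.0% and 37.3% at 8000, by the construction of the thinning. The r of Vars with the other 9 was 0.22 in both libraries for unthinned log values, and that of Qars in sonKD was 0.11 there and 0.069 at 8000 UMIs. The ratio of Vars between cells with and without a Son UMI in sonKD was 0.60 at 2500 and 0.58 at 8000 UMIs. With 1 library per group no replicate could be left out.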
